A study of Mus musculus with 3 samples.

Results

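The BAF complex, also called mammalian SWI/SNF, is a chromatin remodeling machine that uses ATP to slide or evict nucleosomes and so opens DNA to transcription factors. Its ATPase is either *Smarca4* (BRG1) or *Smarca2* (BRM). A core of *Smarcc1*, *Smarcc2*, *Smarcb1* and *Smarce1* is built around it, *Arid1a* or *Arid1b* defines the canonical form, and an actin-related subunit joins it. When neural progenitors leave the cell cycle the complex exchanges *Actl6a* (BAF53a) for *Actl6b* (BAF53b), and mutations in several of these genes cause intellectual disability or autism. These 10 subunit genes were chosen by name, as core and alternative subunits of the complex, and are 10 of the 14933 genes in the deposited table of filtered cells. All 10 had UMIs in every library.

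In the typical neuronal cells, those the authors kept to compare genotypes, *Actl6b* held most of the actin-related pair. Its share was 89.8, 90.0 and 88.5% in the *Tbr1* wild-type, heterozygous and homozygous library. Its level in these cells differed by at most 0.03 on the log2 scale between any 2 of the 3 libraries. *Smarca4* was the member with the largest difference between genotypes in typical cells. It was at 45.0 counts per 1000000 UMIs (CPM) in the wild-type library against 29.6 and 29.8 in the mutant libraries. In every library *Smarca4*, *Actl6a* and *Arid1a* were at least 1.5-fold lower in typical cells than in the other filtered cells. The same held for 23.9% of all genes compared. The other filtered cells include inhibitory-like neurons and, mostly in the mutant libraries, unnamed clusters led by neuronal genes such as *Nrgn*. The atypical neuronal cells held more *Smarca2* than the typical ones in every library.

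The cells came from the medial prefrontal cortex of C57Bl6 mice at postnatal day 5, sorted for tdTomato and captured by droplet scRNA-seq (10X Chromium, 3′ v2 chemistry), 1 library per genotype. The wild-type library is Rbp4cre::tdTomato, the heterozygous library Tbr1f/+::Rbp4cre::tdTomato and the homozygous library Tbr1f/f::Rbp4cre::tdTomato, so that Rbp4-cre and the reporter are shared by all and the libraries differ in the number of floxed *Tbr1* alleles. *Tbr1* encodes a T-box transcription factor of deep-layer cortical neurons and is a high-confidence autism risk gene. The question put to the libraries was which genes differ in layer 5 neurons once *Tbr1* is reduced or removed there. Rbp4-cre acts in layer 5 projection neurons, so the alleles are recombined only in cells that express it or derive from such cells, and the sort also passed cells with glial, vascular and blood markers. The floxed exons lie upstream of the 3′ end that the kit counts, so *Tbr1* UMIs do not show the deletion, and *Tbr1* was at 27.5, 30.7 and 22.4 CPM in typical cells of the wild-type, heterozygous and homozygous library. How many mice entered a library is not given in the sources used here.

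Raw UMIs of each gene were summed per library over 3 sets of cells and divided by all UMIs of the set to give CPM. Typical neuronal cells are those the authors kept for their comparison of genotypes (1778 wild-type, 5357 heterozygous and 3935 homozygous), atypical ones are those they set apart (304, 107 and 462), and the other cells are filtered cells outside the neuronal table (2873, 1398 and 1182). Each UMI stands for 1 molecule counted at its 3′ end, so levels of different genes can be compared without scaling by length. The intervals printed below are exact 95% intervals, Poisson for a level, conditional binomial for a ratio and Clopper-Pearson for a share, and they cover counting error only. Each genotype has 1 library, so a test between them was not possible and no value has a replicate error, and differences between genotypes, mice and library preparations cannot be told apart.

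Several features of the libraries move with genotype. The typical cells sum to 3670646 wild-type, 10418228 heterozygous and 6074494 homozygous UMIs, with a median of 1901, 1743 and 1375 UMIs per cell. The lowest typical cell had 1533, 1196 and 1040 UMIs, above the lower limit stated for all libraries, so other limits may have been applied to each library, which bears on depth and on shares of cells. The excitatory neuron markers summed to 2009, 2427 and 3085 CPM in typical cells, against 564, 1848 and 1220 CPM in the other cells. The astrocyte or radial glia list was higher, at 6842, 5933 and 6810 CPM in typical cells, 5690, 5472 and 5439 CPM in the other cells and 6717, 6323 and 6947 CPM in empty droplets, so it did not separate the sets. The blood markers, with 345, 44.6 and 85.8 CPM, and the endothelial markers, with 86.4, 17.5 and 34.7 CPM, were highest in the wild-type library. So were the microglia markers, with 62.7, 38.5 and 43.1 CPM, and the cycling markers, with 187, 111 and 158 CPM. The mural, meningeal fibroblast and oligodendrocyte lineage markers were too. The inhibitory neuron markers, with 582, 519 and 644 CPM, were highest in the homozygous library. Mitochondrial genes held a median of 10.4, 15.4 and 12.5% of the UMIs of a typical cell. The hemoglobin genes, set against the empty droplets, allow free RNA a share of up to 38.8, 14.5 and 20.3% of the UMIs of typical cells. The lowest limit from any of the marker lists used for this was 24.3, 12.6 and 17.7%. Both limits were highest in the wild-type library that both mutant ratios use. The other cells differ in makeup. Clusters 0 and 4, unnamed but led by neuronal genes such as *Nrgn*, *Camk2a* and *Neurod6*, held 19 and 52 of the 2873 wild-type, 430 and 304 of the 1398 heterozygous and 365 and 19 of the 1182 homozygous other cells, and 270, 23 and 26 cells were cycling-like. The libraries shared 37 to 58 cell barcodes per pair, out of 4955 to 6862 cells. The part of these features in the results below was not tested.

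Among the typical cells *Actl6b* was the most abundant member, with a mean over the libraries of 109 CPM, which put it at percentile 92.3 of all genes by level. *Smarca2* followed at 93.2 and *Smarcb1* at 79.8 CPM. *Smarce1* (49.4), *Smarcc2* (44.7), *Smarcc1* (42.2) and *Smarca4* (34.8) formed a middle group, and *Arid1a* (18.3), *Arid1b* (15.5) and *Actl6a* (12.9, percentile 63.1) were lowest. The counting intervals of *Smarcc1*, *Smarcc2* and *Smarce1* overlapped in the wild-type and homozygous libraries, so their order there is within counting error, as is that of *Actl6a* and *Arid1b* in every library. *Smarca2* and *Smarcb1* stood in the reverse order in the heterozygous library, at 79.6 and 82.6 CPM. Most cells gave no UMI of a given member. *Actl6b* was seen in 20.1, 18.9 and 15.4% of typical cells of the wild-type, heterozygous and homozygous library, *Smarca4* in 8.61, 5.51 and 4.55%, and no cell held more than 4 UMIs of any member, so all comparisons rest on sums.

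**Figure D1:**
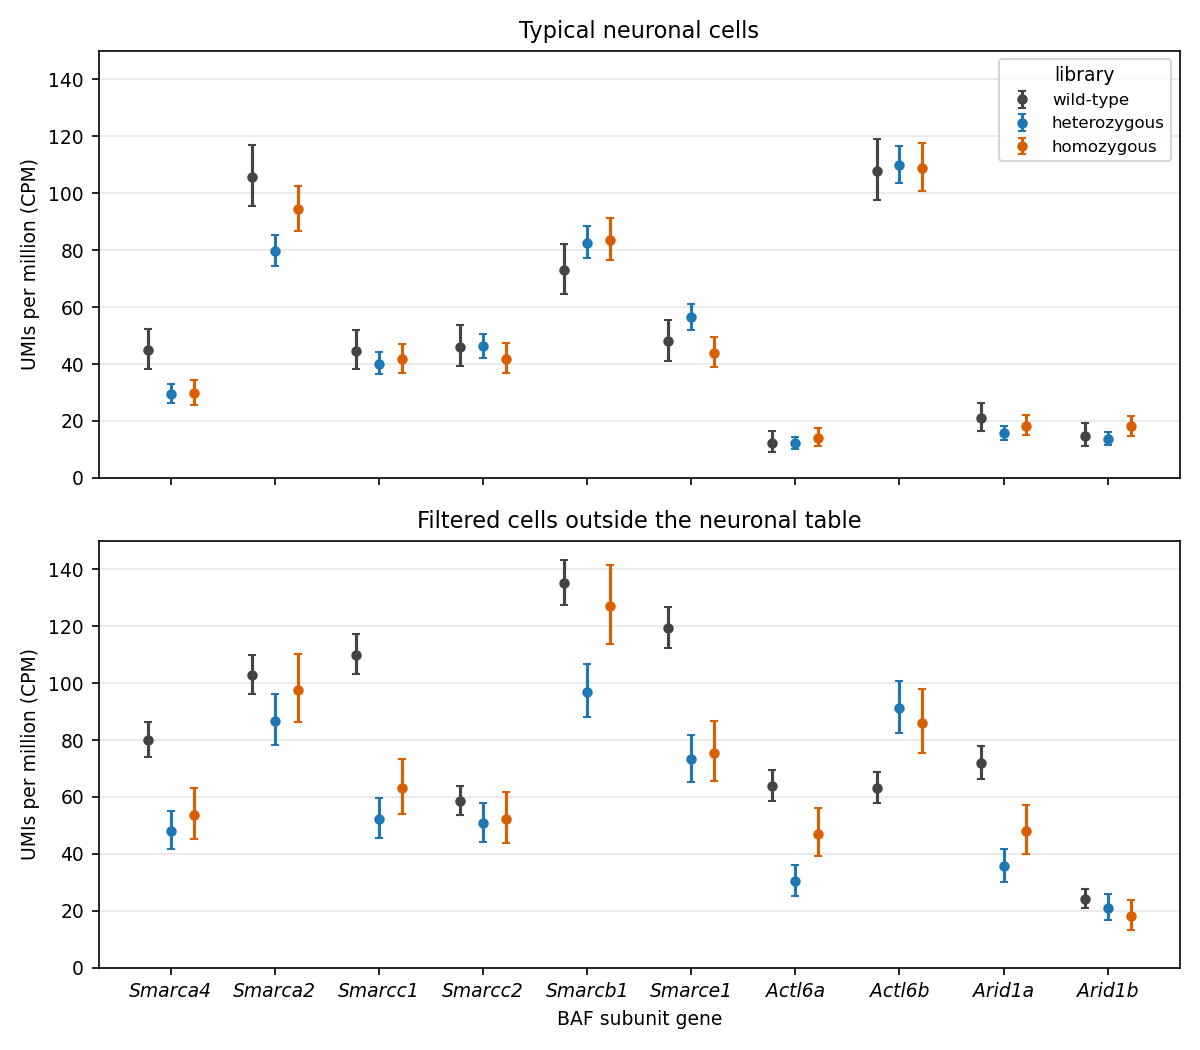
Level of each BAF subunit gene in CPM (vertical axis, UMIs per 1000000) in typical neuronal cells (top) and other filtered cells (bottom), with 1 point per library and exact Poisson 95% intervals as error bars. *Actl6b* is at 107.9 to 109.9 in typical cells of each library, and *Actl6a* is at 12.2 to 14.2 there against 30.3 to 63.8 in other cells.

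Free RNA sets a limit on these levels. In droplets of 100 to 499 UMIs, which stand for the RNA outside cells, the 10 members summed to 487, 494 and 477 CPM for wild-type, heterozygous and homozygous, close to the 518, 486 and 495 CPM of typical cells. *Actl6a* was lower in typical cells than in these droplets in every library, with log2 ratios of −0.80, −0.62 and −0.64. *Smarca2* was higher in typical cells by 0.43 (0.26 to 0.59) in the wild-type library and by 0.13 (−0.02 to 0.28) and 0.19 (0.04 to 0.34) in the others. *Actl6b* was above the droplets by 0.36 (0.19 to 0.52) in the wild-type library, but the heterozygous ratio was 0.14 (0.01 to 0.27) and the homozygous ratio 0.13 (−0.01 to 0.27). *Smarca4* was likewise above them by 0.36 (0.10 to 0.61) in the wild-type library, while the mutant intervals, −0.24 to 0.25 and −0.18 to 0.34, held 0. *Smarcb1* was below the droplets, at −0.39 (−0.58 to −0.20), −0.26 (−0.40 to −0.12) and −0.15 (−0.30 to 0.0043).

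*Smarca4* (chr9:21616169-21704230, plus strand, GRCm38) encodes the ATPase that neural progenitors depend on. It gave 165 UMIs in typical cells of the wild-type library, or 45.0 CPM, 308 UMIs or 29.6 CPM in the heterozygous library, and 181 UMIs or 29.8 CPM in the homozygous library. Both mutant libraries were lower than the wild-type library and level with each other. The log2 ratio was −0.59 (−0.91 to −0.28) for homozygous over wild-type, −0.60 (−0.88 to −0.32) for heterozygous over wild-type and 0.01 (−0.26 to 0.28) for homozygous over heterozygous. Both mutant ratios share the wild-type library, so 1 low or high draw there would move them together.

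A lower *Smarca4* level in the mutant libraries was also seen outside the typical cells. In the other filtered cells the wild-type level was 80.0 CPM and the mutant levels 47.9 (heterozygous) and 53.7 (homozygous), which gave log2 ratios of −0.74 (−0.97 to −0.51) for heterozygous and −0.57 (−0.84 to −0.31) for homozygous over wild-type. The makeup given above moves with these levels. Cycling-like cells, most of them wild-type, had 151, 144 and 294 CPM. Cluster 0, most of it from the mutant libraries, had 129 CPM from 5 UMIs, 40.9 from 36 and 31.4 from 18. Cluster 4, most of it heterozygous, had 27.2 CPM from 6 UMIs, 33.8 from 48 and 12.6 from 1. The part of this makeup in the ratios was not tested. In inhibitory-like cells, found in clusters 1 and 5 of the other cells, wild-type had 96.4, heterozygous 64.6 and homozygous 62.9 CPM, although cluster 1 held 588 of the 715 wild-type inhibitory-like cells but only 83 and 88 cells of the mutant libraries. Endothelial-like cells had 74.8, 61.3 and 44.1 CPM. Astrocyte-like cells went the other way for the homozygous library, with 43.0, 27.8 and 55.9 CPM and a log2 ratio of 0.38 (−0.39 to 1.10). In empty droplets the ratios were −0.25 (−0.47 to −0.03) for heterozygous and −0.32 (−0.51 to −0.13) for homozygous over wild-type, of the same sign as in typical cells.

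**Figure D2:**
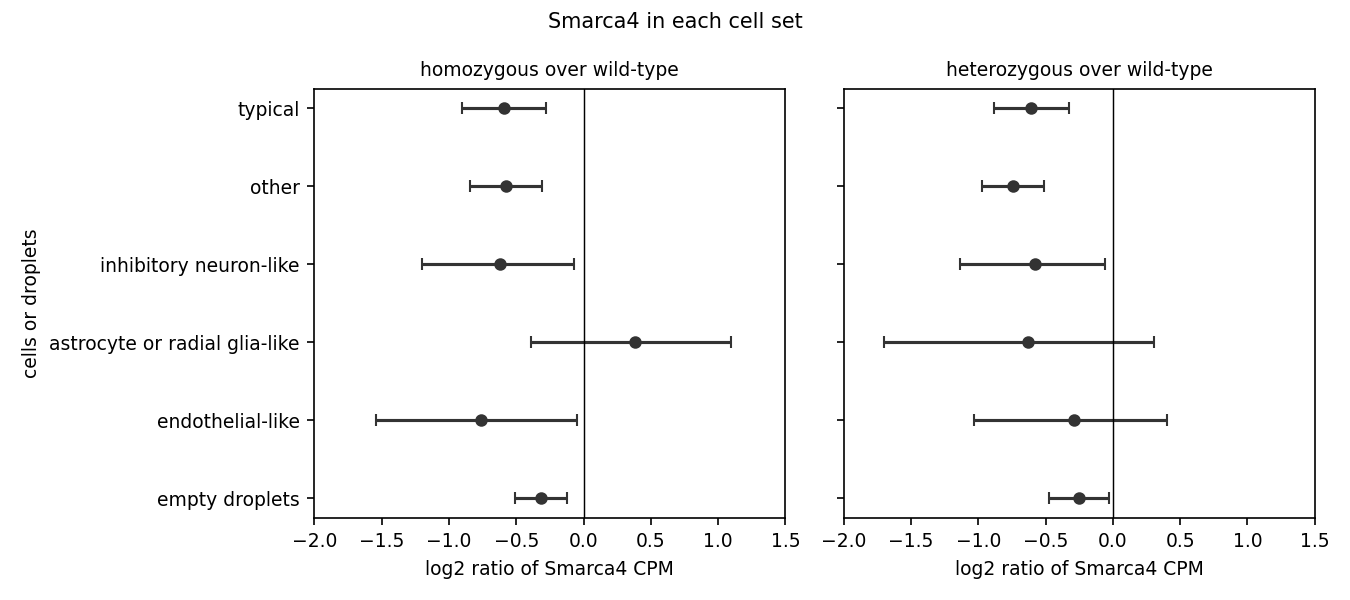
Log2 ratio of *Smarca4* CPM between libraries (horizontal axis) in each cell set, cell class or droplet set (vertical axis), with exact 95% counting intervals as lines. Typical cells are at −0.60 for heterozygous and −0.59 for homozygous over wild-type, other cells at −0.74 and −0.57, and astrocyte-like cells at −0.63 and 0.38.

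*Smarca2* (chr19:26605050-26778322, plus strand) encodes the alternative ATPase, which gains in share as cells differentiate. Wild-type typical cells had 105.7 CPM, heterozygous ones 79.6 and homozygous ones 94.3, from 388, 829 and 573 UMIs. The heterozygous library was the low one, with a log2 ratio to wild-type of −0.41 (−0.59 to −0.23), while the homozygous library was between the others at −0.16 (−0.35 to 0.03) against wild-type and 0.25 (0.09 to 0.40) against heterozygous. The other cells had nearly the same *Smarca2* level as the typical cells, at 102.8, 86.8 and 97.7 CPM. *Smarca2* took 70.2% (66.2 to 74.0) of the ATPase pair in typical cells of the wild-type library, 72.9% (70.2 to 75.5) of the heterozygous and 76.0% (72.8 to 79.0) of the homozygous library. In other cells its share was lower, 56.2, 64.4 and 64.5%. In wild-type cycling-like cells it was 35.5% (29.4 to 42.0), so that *Smarca4* gave more UMIs than *Smarca2* there. In microglia-like cells the pair was within counting error of an even share in each library, with *Smarca2* at 43.6% (32.4 to 55.3) in wild-type and 52.6% (35.8 to 69.0) in heterozygous cells.

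In typical cells, at the levels reported here, no core subunit had a log2 ratio to wild-type past 0.24 in size. *Smarcc1* (BAF155, chr9:110117708-110240178, plus strand) and *Smarcc2* (BAF170, chr10:128459248-128490482, plus strand) encode the paired scaffold proteins of the complex. *Smarcc1* was at 44.7 CPM in wild-type, 40.1 in heterozygous and 41.6 in homozygous typical cells. The levels of *Smarcc2* were 46.0, 46.3 and 41.8 CPM, listed likewise. Neither gene had a ratio whose interval left out 0, and for *Smarcc2* the log2 ratio was −0.14 (−0.43 to 0.15) for homozygous and 0.01 (−0.25 to 0.27) for heterozygous over wild-type. The scaffold pair was near an even share in typical cells, with *Smarcc2* at 50.8, 53.6 and 50.1% of the pair. In the heterozygous library *Smarcc2* was ahead, with 482 UMIs against 418 of *Smarcc1*.

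In the other cells *Smarcc1* differed far more between libraries. Wild-type cells had 109.9 CPM against 52.3 in heterozygous and 63.1 in homozygous ones, and *Smarcc2* held 34.7, 49.2 and 45.3% of the pair. The part of the makeup of these cells, given above, was not tested, and cycling-like cells had 273, 347 and 242 CPM of *Smarcc1*. Within the inhibitory-like cells both mutant libraries were also below wild-type, with 155.4, 90.8 and 62.9 CPM in wild-type, heterozygous and homozygous cells, again with the difference in cluster makeup given above. Other named classes were within counting error of 0. Homozygous over wild-type gave 0.12 (−0.58 to 0.78) in astrocyte-like and −0.22 (−1.03 to 0.54) in endothelial-like cells. Heterozygous over wild-type gave −0.53 (−1.40 to 0.25) and −0.88 (−2.01 to 0.10) in these, and −0.29 (−1.35 to 0.70) in microglia-like cells. The unnamed cluster 4 gave −1.07 (−1.93 to −0.12) for heterozygous over wild-type.

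*Smarcb1* (BAF47, chr10:75896769-75921617, minus strand) encodes a core subunit that contacts the nucleosome. The wild-type level was 73.0 CPM, against 82.6 for heterozygous and 83.6 for homozygous. The log2 ratios of 0.18 (−0.02 to 0.38) and 0.20 (−0.02 to 0.41) to wild-type are within counting error of 0. In other cells the order was different, with a wild-type level of 135.1 CPM and mutant levels of 97.0 (heterozygous) and 127.0 (homozygous).

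*Smarce1* (BAF57, chr11:99209047-99231017, minus strand) encodes a core subunit with an HMG domain that binds DNA. Typical cells gave 48.0 (wild-type), 56.4 (heterozygous) and 44.0 (homozygous) CPM, from 176, 588 and 267 UMIs. The mutant libraries differed from each other, with a log2 ratio of −0.36 (−0.57 to −0.15) for homozygous over heterozygous, and lay on either side of wild-type at −0.13 (−0.41 to 0.16) and 0.24 (−0.01 to 0.49). The free RNA showed the same difference, with −0.45 (−0.62 to −0.28) in empty droplets, whereas the other cells together gave 0.05 (−0.22 to 0.31). Within classes of the other cells it was −0.56 (−1.12 to −0.01) in inhibitory-like and −0.43 (−1.54 to 0.64) in astrocyte-like cells. Endothelial-like cells gave −0.25 (−0.97 to 0.47) and the unnamed cluster 0 gave 0.04 (−0.68 to 0.74). The makeup of the other cells, given above, differs between libraries, and its part in the ratio was not tested.

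The 2 actin-related subunits differed in opposite directions between typical and other cells. *Actl6b* (chr5:137553517-137569582, plus strand) encodes the subunit of post-mitotic neurons, and *Actl6a* (chr3:32706298-32726973, plus strand) that of progenitors and non-neuronal cells. Their RefSeq promoter windows, 250 bases before to 50 after the start of the transcript on GRCm38.p6, are printed because the share that each gene holds of the pair differs between the cell sets. They span chr5:137553296-137553595 for *Actl6b* and chr3:32708296-32708595 for *Actl6a*, both on the plus strand and 5′ to 3′. Capitals mark matches, on either strand, to CCAAT, the letters of the CCAAT box, and to TCAGCACC and GGACAGC, the left and right parts of the element bound by REST, a repressor of neuronal genes outside neurons.
Actl6b: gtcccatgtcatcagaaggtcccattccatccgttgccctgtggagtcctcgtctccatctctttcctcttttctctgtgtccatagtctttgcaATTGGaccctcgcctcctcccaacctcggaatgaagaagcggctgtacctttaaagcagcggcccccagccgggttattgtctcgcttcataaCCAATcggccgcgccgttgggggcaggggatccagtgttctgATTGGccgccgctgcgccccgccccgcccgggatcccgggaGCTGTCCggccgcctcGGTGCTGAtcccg
Actl6a: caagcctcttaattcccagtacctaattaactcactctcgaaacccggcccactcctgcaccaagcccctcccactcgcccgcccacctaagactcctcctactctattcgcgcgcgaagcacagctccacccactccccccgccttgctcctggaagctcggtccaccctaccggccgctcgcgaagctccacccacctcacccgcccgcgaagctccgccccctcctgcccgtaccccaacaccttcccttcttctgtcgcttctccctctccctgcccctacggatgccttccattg
The *Actl6b* window has 3 CCAAT matches, at bases 96 to 100, 189 to 193 and 231 to 235, and CCAAT is in 37.4% of the 32851 promoter windows. It also holds both REST parts on the minus strand, at bases 288 to 295 and 272 to 278 with 9 bases between them. Both parts on 1 strand with at most 20 bases between were found in 18 of 32851 windows, or 0.0548%, and in no other member. Taken singly, TCAGCACC is in 1.65% and GGACAGC in 6.56% of windows, and GGACAGC also matched in *Smarcc2*, *Arid1a* and *Arid1b*. The *Actl6a* window holds none of these letters. It starts at base 32708296, inside the gene as annotated from base 32706298, so the letters around that annotated start were not examined. GGTGTGA, the core of a T-box site, is in 3.98% of windows and in none of the members' windows. A window was found for 9 of the 10 members, without *Smarce1*. The motifs were chosen with the *Actl6b* sequence and level known, and a match is a description of letters only.

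*Actl6b* counts of 396 wild-type, 1145 heterozygous and 661 homozygous UMIs made 107.9, 109.9 and 108.8 CPM in typical cells. These levels were the most alike of any member, with log2 ratios to wild-type of 0.03 (−0.14 to 0.20) and 0.01 (−0.17 to 0.20). *Actl6a* had only 45, 127 and 86 UMIs, which made 12.3, 12.2 and 14.2 CPM, and its ratio of 0.21 (−0.33 to 0.76) for homozygous over wild-type leaves room for a difference in either direction. *Actl6b* thus held 89.8% (86.6 to 92.5) of the pair in wild-type, 90.0% (88.2 to 91.6) in heterozygous and 88.5% (86.0 to 90.7) in homozygous typical cells.

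The share of *Actl6b* differed between the named classes of other cells. Of these classes, inhibitory-like neurons were nearest to the typical cells, with 74.1, 83.1 and 85.6% in the wild-type, heterozygous and homozygous library. Cluster 1 gave 588, 83 and 88 of these inhibitory-like cells and cluster 5 gave 127, 103 and 112, in the same order. The part of this makeup in the shares was not tested. Astrocyte-like cells had 45.1, 64.0 and 45.0%, and endothelial-like cells had 31.9, 27.6 and 31.4%. Cycling-like cells were the lowest of the wild-type classes at 14.5% (10.1 to 19.9). The cycling-like cluster also had 5 of the 9 listed inhibitory neuron markers at 2-fold or more over the rest of the other cells. The share in empty droplets, 79.7, 84.3 and 81.8%, lay between that of typical cells and that of the astrocyte-like, endothelial-like and wild-type cycling-like cells.

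**Figure D3:**
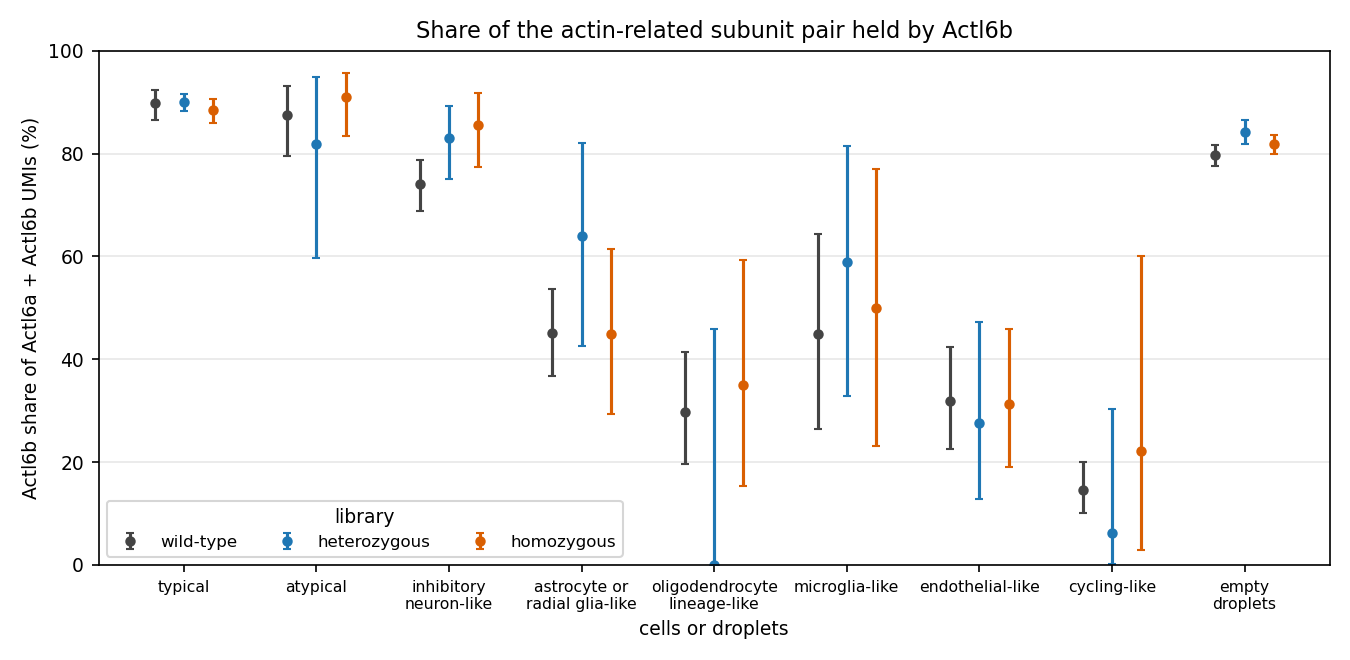
Percent of the UMIs of *Actl6a* and *Actl6b* together that were *Actl6b* (vertical axis), by cell set, cell class or empty droplets (horizontal axis), with 1 marker per library and exact Clopper-Pearson 95% intervals. Typical cells of all 3 libraries lie at 88.5 to 90.0%, and wild-type cycling-like cells at 14.5%.

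The share of cells with a UMI was computed for typical, endothelial-like, microglia-like and cycling-like cells. In endothelial-like cells, which serve as the background for a neuronal gene, *Actl6b* was seen in 8.67, 6.14 and 9.82% of cells of the wild-type, heterozygous and homozygous library at a median of 2883, 2704 and 2069 UMIs per cell, against 20.1, 18.9 and 15.4% of typical cells at 1901, 1743 and 1375 UMIs. With every cell thinned to 1000 UMIs, *Actl6b* was in 9.73, 10.2 and 10.4% of typical and 2.48, 2.63 and 6.13% of endothelial-like cells. *Actl6a* was in 1.41, 1.46 and 1.45% of thinned typical cells and 4.33, 4.39 and 7.98% of thinned endothelial-like cells. Wild-type cycling-like cells had *Actl6a* in 15.2% and *Actl6b* in 2.96% after thinning, the latter near the share in wild-type endothelial-like cells. Thinned microglia-like cells had *Actl6b* in 3.03, 7.07 and 5.80% and *Actl6a* in 2.27, 2.02 and 5.80%.

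*Arid1a* (chr4:133679008-133756769, minus strand) and *Arid1b* (chr17:4994332-5347656, plus strand) encode the alternative ARID subunits, and loss of 1 copy of *Arid1b* is a frequent cause of syndromic intellectual disability. *Arid1a* was at 21.0 CPM in wild-type, 15.7 in heterozygous and 18.3 in homozygous typical cells, from 77, 164 and 111 UMIs. *Arid1b* was at 14.7, 13.7 and 18.1 CPM, from 54, 143 and 110 UMIs. The heterozygous library was lowest for both. For *Arid1a* the log2 ratio of heterozygous over wild-type was −0.41 (−0.81 to −0.00), and empty droplets gave −0.60 for the same ratio. For *Arid1b* homozygous over heterozygous was 0.40 (0.03 to 0.77), against −0.41 in empty droplets. *Arid1b* held 41.2, 46.6 and 49.8% of the pair in typical cells, 25.2, 37.1 and 27.3% in other cells and 16.9% in wild-type cycling-like cells.

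Counted together, few members had a log2 ratio of 0.32 or more in either direction between genotypes, the limit set here for calling a difference. For homozygous over wild-type it was 1 of 10, *Smarca4*, where 25.7% of the 4261 genes that averaged 20 CPM or more passed. For heterozygous over wild-type it was 3 of 10, *Smarca2*, *Smarca4* and *Arid1a*, all lower, against 26.6% of genes. For homozygous over heterozygous it was 2 of 10, *Smarce1* (lower) and *Arid1b* (higher), against 6.71%. *Smarca4* alone was lower in both mutant libraries, as were 5.68% of genes, and no member was higher in both, against 11.7%. The counts against wild-type are thus below or near the background. *Actl6a*, *Arid1a* and *Arid1b* were below the 20 CPM that the background genes had to reach, and among genes with a mean of 10 to 120 CPM, the range of the members, 31.1, 31.3 and 12.2% passed in the 3 comparisons. The median log2 ratio of the 10 members was −0.11 for homozygous and −0.05 for heterozygous over wild-type, beside 0.06 for both among all genes of 10 to 120 CPM. The 7 members at 20 CPM or more had medians of −0.13 and 0.01, beside 0.08 and 0.06 for all such genes. Summed, the members had 518 wild-type, 486 heterozygous and 495 homozygous CPM, a log2 ratio to wild-type of −0.09 (−0.17 to −0.02) and −0.07 (−0.15 to 0.02) for the mutants.

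**Figure D4:**
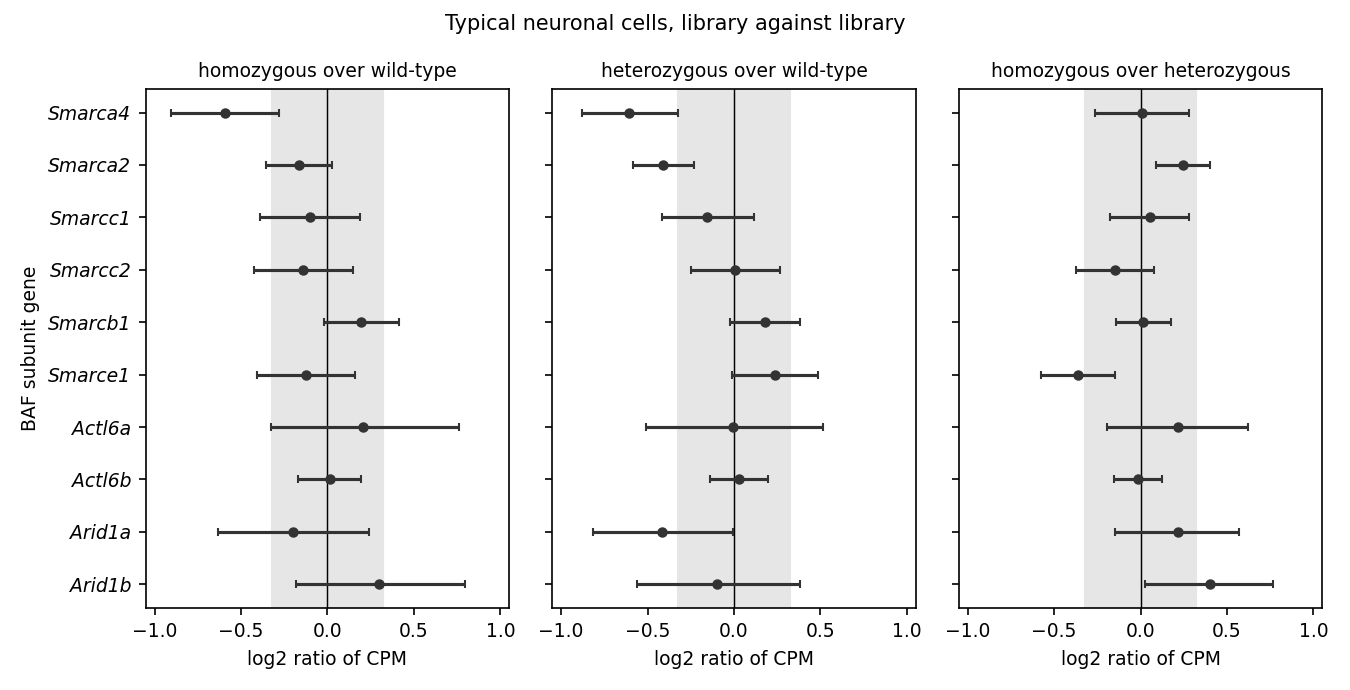
Log2 ratio of CPM between libraries in typical neuronal cells (horizontal axis) for each BAF subunit gene (vertical axis), with exact 95% counting intervals as lines. *Smarca4* lies at −0.59 and −0.60 in both mutant libraries over wild-type, and *Actl6b* lies at 0.01 and 0.03.

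Summed over the 10 subunit genes, UMIs were more abundant in the other filtered cells together than in the typical neurons. *Actl6b* and *Smarca2* did not follow this in the pooled cells, but did against inhibitory-like cells, given below. Of all genes compared, 36% were below −0.32 in every library. Clusters 0 and 4 of the other cells were led by neuronal genes. They held 19 and 52 of 2873 wild-type, 430 and 304 of 1398 heterozygous and 365 and 19 of 1182 homozygous other cells. The part of this makeup in the ratios was not tested. The 10 members summed to 829 CPM in wild-type, 586 in heterozygous and 669 in homozygous other cells, which gave log2 ratios of typical over other cells of −0.68, −0.27 and −0.43. The progenitor subunit *Actl6a* had log2 ratios of −2.38 (−2.85 to −1.94), −1.32 (−1.68 to −0.95) and −1.73 (−2.14 to −1.32) in the wild-type, heterozygous and homozygous library. For *Arid1a* the log2 ratios were −1.78, −1.18 and −1.40, and for *Smarca4* −0.83, −0.70 and −0.85. These 3 members were at least 1.5-fold lower in every library, as were 23.9% of the 5183 genes compared and 33.7% of those with a mean of 10 to 120 CPM, and none was 1.5-fold higher in every library, as were 0.83%. *Actl6b* was the 1 member whose ratio was above 0 with its interval in every library, at 0.77 (0.58 to 0.96), 0.27 (0.10 to 0.44) and 0.34 (0.12 to 0.56), and *Smarca2* was near 0 at 0.04, −0.13 and −0.05. The authors chose the neuronal cells by clustering on expression, so these ratios describe the cell sets and were not tested.

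The typical cells and the other classes differed by subunit rather than by 1 common factor. Over the 3 libraries cycling-like cells held 277 CPM of *Smarcc1*, 233 of *Smarce1*, 179 of *Actl6a*, 157 of *Smarca4* and 142 of *Arid1a*, against 41.4, 51.1, 12.8, 32.4 and 17.5 CPM in typical cells. In wild-type cells alone, typical over cycling-like gave log2 ratios of −3.90 for *Actl6a*, −2.81 for *Arid1a*, −2.61 for *Smarcc1* and −2.28 for *Smarce1*, but 0.35 (0.01 to 0.71) for *Smarca2* and 1.80 (1.27 to 2.38) for *Actl6b*. Summed over the 10 genes, wild-type, heterozygous and homozygous cycling-like cells had 1355, 1413 and 1507 CPM, inhibitory-like cells 1142, 948 and 865 CPM, and oligodendrocyte-lineage-like cells 936, 998 and 1090.0 CPM, the mutant values of the first and last class from at most 46 cells each. Levels summed over the libraries are weighted to the library with most cells of a class, wild-type for most of them and heterozygous for typical cells. Mural-like, endothelial-like, microglia-like, astrocyte-like and meningeal-like cells lay between 554 and 696 CPM over the libraries. Against inhibitory-like cells, every member was lower in typical cells in each library, with its interval below 0. The share of all genes lower against this class is not given here. The log2 ratio of typical over inhibitory-like cells was −0.39, −0.64 and −0.64 for *Actl6b* in the wild-type, heterozygous and homozygous library. For *Smarca2* it was −0.53, −0.97 and −0.80, and for *Smarcc1* −1.80, −1.18 and −0.59 (−1.12 to −0.02). Summed over the libraries, *Actl6b* was at 153 CPM in inhibitory-like and 109 in typical cells. Among these classes, summed over the libraries, *Arid1b* was lowest in microglia-like cells, at 6.58 CPM from 5 UMIs. The libraries differed, with 2.66 CPM from 1 UMI in wild-type and 16.1 CPM from 4 UMIs in heterozygous microglia-like cells.

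**Figure D5:**
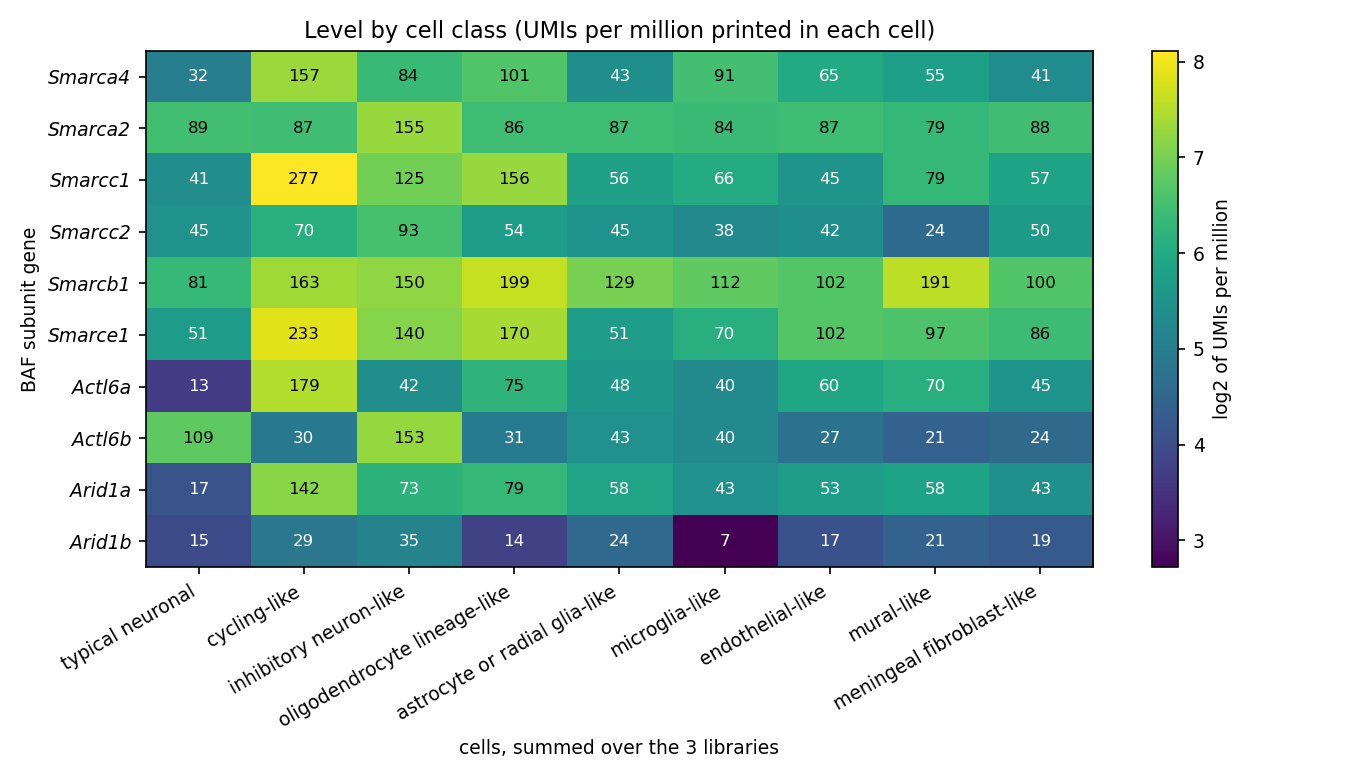
Level of each BAF subunit gene (vertical axis) in typical neuronal cells and in each named class of other cells (horizontal axis), summed over the 3 libraries, with color on a log2 scale and the CPM printed in each square. Cycling-like cells hold the highest *Actl6a* (179) and inhibitory-like cells the highest *Actl6b* (153).

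In the atypical neuronal cells the 10 members summed to 713, 509 and 603 CPM in the wild-type, heterozygous and homozygous library, with log2 ratios to typical cells of 0.46 (0.31 to 0.61), 0.07 (−0.22 to 0.34) and 0.29 (0.14 to 0.43). The authors set these cells apart for lower *Neurod6* and *Nrgn* and for high housekeeping genes. They were chosen by clustering on expression, so these ratios describe the cell sets and were not tested. The listed excitatory markers summed to 573, 2418 and 1178 CPM in the atypical cells. The heterozygous atypical cells were thus level with the 2427 CPM of heterozygous typical cells. Inhibitory neuron markers were at 835, 444 and 678 CPM in atypical and 582, 519 and 644 CPM in typical cells, and cycling markers at 262, 97.1 and 169 CPM against 187, 111 and 158 CPM, so both lists were higher in the atypical cells of the wild-type and homozygous library, as the members were. Blood markers were at 345, 60.1 and 997 CPM against 345, 44.6 and 85.8 CPM. The part of these markers in the ratios was not tested. The sums are small, 482 UMIs of the 10 members in wild-type cells and 110 and 449 in the mutants. No member was 1.5-fold higher or lower in every library, as were 1.78 and 2.72% of the 4271 genes compared. *Smarca2* was at 153.9, 138.7 and 173.1 CPM in atypical cells, above its typical level throughout, and the log2 ratios were 0.54 (0.22 to 0.86), 0.80 (0.22 to 1.33) and 0.88 (0.59 to 1.15). It was the 1 member past 0.32 in every library, as were 3.96% of genes in the higher direction. *Arid1b* was higher in the wild-type and heterozygous library, at 1.21 (0.44 to 1.94) and 1.43 (0.19 to 2.45), but not beyond counting error in the homozygous library, at 0.15 (−0.73 to 0.94). *Actl6b* held 87.5, 81.8 and 90.9% of its pair, near the share in typical cells.

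Other subunits of the BAF family extended the picture. Of 20 listed subunits outside the 10 members, 19 were in the table and 11 averaged 20 CPM or more in typical cells. *Bcl7a*, a subunit found in all forms of the complex, was the 1 of these 11 whose ratio was above 0.32 in both mutant libraries, as were 11.7% of genes, at 40.9 CPM in wild-type and 52.0 in each mutant library, a log2 ratio of 0.35 for each (0.08 to 0.62 heterozygous, 0.06 to 0.64 homozygous). The list's median over the 19 genes was 0.11 for homozygous and −0.03 for heterozygous over wild-type, beside 0.01 and −0.01 over all genes with a UMI in both libraries. Over the 11 it was 0.18 and 0.13, beside 0.08 and 0.06 over all genes at that level.

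Some further subunits are exchanged along with *Actl6a* and *Actl6b*. All 4 genes of the progenitor form (*Actl6a*, *Phf10*, *Dpf2* and *Ss18*) had log2 ratios of typical over other cells below −0.32 in every library. *Dpf2*, a reader of histone acylation, was at 11.2, 13.6 and 13.5 CPM in typical and 47.0, 27.8 and 29.7 CPM in other cells. *Phf10*, a subunit of the PBAF form, was at 10.9, 12.6 and 14.7 CPM against 17.9, 16.0 and 19.9 CPM. *Ss18* was at 7.08, 7.97 and 6.26 CPM against 24.1, 13.4 and 20.7 CPM. Of the neuronal form, *Dpf1* was higher in typical cells by 0.60 (0.31 to 0.89), 0.27 (0.04 to 0.51) and 0.30 (−0.01 to 0.61), and *Ss18l1* (CREST) by 0.64 (0.10 to 1.17), 0.12 (−0.35 to 0.62) and 0.15 (−0.52 to 0.87). *Dpf3* had ratios of −0.49, −0.93 and −0.69, and none of the 4 genes of the neuronal form was above 0.32 in every library. For comparison, 36% of the genes that averaged 20 CPM or more were below −0.32 in every library and 7.1% were above 0.32, and without the CPM limit, which 2 of the 4 genes of each form missed, it was 47.9 and 4.29%.

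Remodelers of other families gave a background for the members. Of 26 listed genes of other ATP-dependent remodelers, 22 were below −0.32 for typical over other cells in every library, beside 47.9% of the 13751 genes with a UMI in each of these sets. At a mean of 20 CPM or more over both sets it was 11 of 13, beside the 36% of genes given above. Of the list, 1 gene, *Chd5*, a remodeler of neurons, was above 0.32, as were 4.29% of genes without the CPM limit, with 101.6, 80.5 and 77.2 CPM in typical and 42.7, 55.8 and 47.4 CPM in other cells. *Chd4*, the ATPase of the NuRD complex, had ratios of −1.67, −1.11 and −1.27. Between genotypes the list's median was −0.26 for homozygous and −0.36 for heterozygous over wild-type, beside the 0.01 and −0.01 over all genes given above, and −0.12 and −0.23 over the 7 that reached 20 CPM, beside 0.08 and 0.06. Of these 7, *Chd4* and *Chd5* had ratios below −0.32 in both mutant libraries, as did 5.68% of genes, *Chd4* with 37.3 CPM in wild-type, 25.4 in heterozygous and 28.2 in homozygous cells and *Chd5* with the levels just given. Of 6 genes of the Polycomb repressive complex that methylates histone H3, *Rbbp7*, a histone chaperone shared with NuRD, was 1 of the 2 that reached 20 CPM and was above 0.32 in both, at 43.3, 66.5 and 65.2 CPM, beside the 11.7% of genes given above. *Ezh2*, the methyltransferase, named here after its values were seen, was below 20 CPM and lower in both, at 13.6, 7.97 and 8.23 CPM. Without the CPM limit, 24.8% of genes were below −0.32 for homozygous and 26.5% for heterozygous over wild-type, each comparison taken alone. The median of the 6 Polycomb genes was 0.06 for homozygous and −0.08 for heterozygous over wild-type.

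Among the genes closest to *Actl6b* in pattern, by Pearson's r of the log2 level over the 9 combinations of library and cell set among 4895 genes, were *Pdzd4* (0.97) and *Ngfrap1* (0.95). For *Actl6a* they were *Snrnp70*, *Tmem9* and *Hax1*, each at 0.99, and for *Smarcc2* they were *Naa15*, *Setd8* and *Pcdh10*, each at 0.98. The 9 points share libraries, depth and cell sets and are not independent, so these values rank patterns only.

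Some genes share their locus with others in the GENCODE vM21 annotation of GRCm38. *Actl6a* overlaps *Mrpl47* on the opposite strand, *Smarcc1* overlaps *Dhx30*, *Smarca2* overlaps 4931403E22Rik and *Arid1b* overlaps *Gm15599*. On the same strand *Smarca4* overlaps *Gm27373* and *Arid1a* overlaps *Mir7227*, which strand could not tell apart. Whether the counting used strand is not given in the sources used here, so part of the UMIs of these members could belong to the partner.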

How the data were processed

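tdTomato-sorted cells were measured by scRNA-seq in 1 library per genotype. UMI counts were deposited by the authors without normalization (Cell Ranger 2.0.1 and mm10, per the submitters' processing notes), for every barcode and, in a second table, for the 17396 cells passing their limits on mitochondrial share (at most 30%), UMIs and genes. The mitochondrial share of a cell was deposited as a fraction. The neuronal table that holds log-normalized values and the scaled table gave cell lists only or were not used.

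The 10 members and all lists were chosen with earlier results of these data known. Cells took their library and set from the lists of the authors, and the UMIs of each set were summed to CPM over all its UMIs. A member counted as different at 1.25-fold (0.32 on the log2 scale) between genotypes and 1.5-fold between cell sets, and the share of all genes past the same fold was computed among those with a mean of at least 20 CPM. Where 1 group of cells had 0 UMIs, no fold was given. The text names the 10 members, the exchanged subunits, genes of each list past 1.25-fold in both mutant libraries at 20 CPM or more, and genes among the 5 nearest in pattern to *Actl6a*, *Actl6b* and *Smarcc2*, of which 1 is not reported here. Other cells were clustered with Leiden (2000 genes, 30 components, 20 neighbors, resolution 1) and named X-like from listed markers, and clusters without a clear name stayed unnamed. No doublet caller was run, and leaving out the deepest 5% of cells stands in for it. A wild-type library total of 3670646 UMIs in typical cells gives *Actl6a* 45 UMIs, which bounds its precision.

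Python 3.11.15, numpy 2.4.6, scipy 1.17.1, pandas 2.3.3, leidenalg 0.10.2, igraph 0.11.9, scikit-learn 1.9.0 and matplotlib 3.10.9 were used, with edgeR 4.0.16 and DESeq2 1.42.0 in R 4.3.3 for scaling factors only. The ratios, the intervals and the 1.25-fold calls were tested on simulated independent counts, without variation between libraries. Clustering, thinning, subtraction of the empty-droplet profile and the motif search were not tested in this way. Alternatives were both sets of scaling factors, another denominator, the mean over cells, inclusion of atypical cells, thinning to 1000 UMIs, removal of deep cells, subtraction of the empty-droplet profile, other folds and other filters.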

Additional observations from a re-analysis of the deposited data

Results flagged for a closer look

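*Smarcb1* differed in sign between cell sets. In typical cells both mutant libraries were above wild-type, with log2 ratios of 0.20 for homozygous and 0.18 for heterozygous, and in the other filtered cells both were below it, with −0.09 and −0.48. The difference between the sets was not tested, and 3 of the 4 intervals include 0, the exception being −0.48 (−0.64 to −0.32). The makeup of the other cells differs between libraries, with 270 wild-type, 23 heterozygous and 26 homozygous cycling-like cells and with 19, 430 and 365 cells in cluster 0 and 52, 304 and 19 in cluster 4, both led by neuronal genes, and its part in these ratios was not tested.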

How the results depend on the processing

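No paired analysis was possible because the labels carry no replicate numbers and each genotype has 1 library, and no library could be left out for the same reason. Of the 300 values of single members over 10 alternatives, 293 stayed within the counting interval of the value reported, and 7 lay outside it. No value reported as past the limit for a difference changed sign, while some reported as within it did, such as *Actl6a* for heterozygous over wild-type, from −0.01 to 0.77. *Smarca4* was past a log2 ratio of 0.32 in size in both mutant libraries in 10 of 10 alternatives, with log2 ratios of −0.76 to −0.49 for homozygous and −0.79 to −0.54 for heterozygous over wild-type. The count of members past this limit for homozygous over wild-type, 1 as reported, was 2 with atypical cells included, 5 with cells thinned to 1000 UMIs (1 random draw, *Actl6a* among the 5, although a separate draw gave it in 1.41% of wild-type and 1.45% of homozygous cells) and 5 with the empty-droplet profile subtracted at the share set by hemoglobin. With alternatives chosen after seeing the data it was 3 for subtraction at a smaller share and 2 for cells of at least 1533 UMIs, the lowest in the wild-type library. For heterozygous over wild-type, 3 became 4 with thinning, 6 with subtraction at the hemoglobin share and 1 at 1.5-fold. For homozygous over heterozygous, 2 became 3 with atypical cells included, 1 without the deepest 5% of cells, 4 with cells of at least 1533 UMIs and 0 at 1.5-fold, and thinning left 2 with *Actl6a* in place of *Arid1b*. Of all genes with a mean of 10 to 120 CPM, 31.1% passed for homozygous over wild-type, 31.3% for heterozygous over wild-type and 12.2% for homozygous over heterozygous. In that order it was 29.6, 32 and 12.6% with atypical cells, 36.7, 38 and 18.1% with thinning, 31.8, 32 and 13.2% without the deepest cells, 42.5, 40.3 and 16.6% with the hemoglobin share and 36.4, 35.3 and 15.7% with the smaller share subtracted, 35.1, 31.5 and 19.4% at 1533 UMIs and 7.86, 8.11 and 2.05% at 1.5-fold. At a log2 ratio of 0.32 the count for typical against other cells was 5 in place of 3, all lower. Of all genes, 36% at 20 CPM or more and 47.8% at 10 to 120 CPM were that much lower in every library. For atypical against typical cells it was 1 in place of 0, higher, beside 3.96% and 5.38% of genes at these levels. The *Actl6b* share in wild-type typical cells, 89.8%, was 94.98% and 92.5% after subtraction at the larger and smaller share, and the summed members for heterozygous over wild-type moved from −0.09 to −0.17 with atypical cells included. The cause of these shifts was not tested. Subtraction at the hemoglobin share gave *Smarcb1* ratios of 0.47 and 0.44 and *Actl6a* ratios of 0.90 and 0.77 for homozygous and heterozygous over wild-type. Without the filter on CPM, 47.4, 48.1 and 34% of genes were past it in the 3 comparisons, and at 50 CPM 23.6, 25.9 and 4.52%. Scaling moved the median of all genes by at most 0.06. Low counts of *Actl6a*, *Arid1a* and *Arid1b* limit what a difference of this size can show.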
